A study of Drosophila melanogaster with 62 samples.

Results

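The comparison described here followed single HisRFP embryos over 1 nuclear cycle of the syncytial blastoderm, from nuclear cycle 12 (NC12) to nuclear cycle 13 (NC13). Its members were chosen by their stage and genotype labels and comprised 7 of the 62 libraries in the series, with 3 embryos at NC13 (A, C and D) and 4 embryos at NC12 (A, B, C and D). Each library was made from the poly(A)-selected RNA of 1 whole embryo of genotype w;His2AVRFP(III), which carries a red fluorescent histone H2Av so that nuclei can be counted in the living embryo. Embryos were raised at 25°C, dechorionated, and picked by nuclear density about midway through the cycle. NC13 and NC12 embryos carried the same alleles and received no agent, so that the only labelled difference was the cycle. The series as a whole set HisRFP embryos beside embryos laid by *brat*-mutant mothers (labelled brat Df/fs1) from the oocyte to NC14. The labels do not give the sex or the parents of an embryo, and p-values measure the spread between these embryos.

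Before the zygotic genome is active, the *Drosophila* embryo divides its nuclei in a shared cytoplasm with mRNAs and proteins that the mother placed in the egg. During the maternal-to-zygotic transition these maternal mRNAs are cleared, in an order set by RNA-binding proteins such as Smaug, Brain tumor and Pumilio, while transcription from the zygotic genome begins. The first zygotic genes tend to be short and to lack introns, and many of them depend on the pioneer factor Zelda (ZLD). They include patterning genes, the signals of the dorsal ectoderm and the proteins that build membrane between nuclei at cellularization, which follows the last syncytial division. A poly(A)-selected library reports polyadenylated mRNA per total read, so that transcript amount and poly(A) tail length cannot be told apart, nor can a change in 1 mRNA be told apart from an opposite change in the rest.

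NC13 embryos were sequenced more deeply, with 20509607 to 23781175 assigned reads per embryo, against 8036126 to 16537207 in NC12 embryos. The limit that a count of 3 reads allows was 0.131 to 0.148 reads scaled to a common library total (CPM, the usual normalised read count) at NC13 and 0.172 to 0.376 CPM at NC12, for counting error only. A level of 1 CPM was reached by 6264 to 6389 genes at NC13, against 6472 to 6581 at NC12. Embryo C stood apart within both cycles. The correlation of log2 CPM across genes (which are not independent replicates) was 0.996 between NC13 A and D but 0.977 and 0.97 for the pairs with NC13 C, and it was 0.996 for the 3 pairs among NC12 A, B and D but 0.984 to 0.989 for the pairs with NC12 C. The counts over all genes are therefore given also without both embryos C, as are list counts that this moved.

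Over the 7018 genes with at least 50 reads in the 7 libraries, the NC13 embryos had 177 genes (2.52%) called higher and 1398 (19.9%) called lower than the NC12 embryos. A call required an adjusted p under 0.05 in edgeR's quasi-likelihood test, with Benjamini-Hochberg adjustment over all genes tested, and a log2 fold change beyond 1. Without the fold threshold 1520 genes (21.7%) were higher and 1703 (24.3%) lower. The 3 NC13 embryos all lay above the 4 NC12 embryos for 1989 genes (28.3%) and all below them for 2082 genes (29.7%). The median log2 fold change of all genes tested was 0.03 and moved to -0.12 when libraries were scaled by their totals alone, so that differences of that size carry no direction here. Without both embryos C, 167 genes were higher and 1452 lower, and 124 and 1268 of these were also called with all embryos. The adjusted p-values lay close to the threshold, the smallest being 0.0221, and the counts depended on single embryos. Without NC12 A, B or D or NC13 A, edgeR called 0 genes in either direction, with smallest adjusted p-values of 0.0531 to 0.0655 and 3206 to 3499 genes at an unadjusted p under 0.05, against 4078 with all embryos. DESeq2 on all 7 libraries called 194 higher and 1613 lower. Without NC13 C alone 95 genes were higher, and of the 98 genes named by rule 24 lost their call, given beside each gene.

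**Figure D1:**
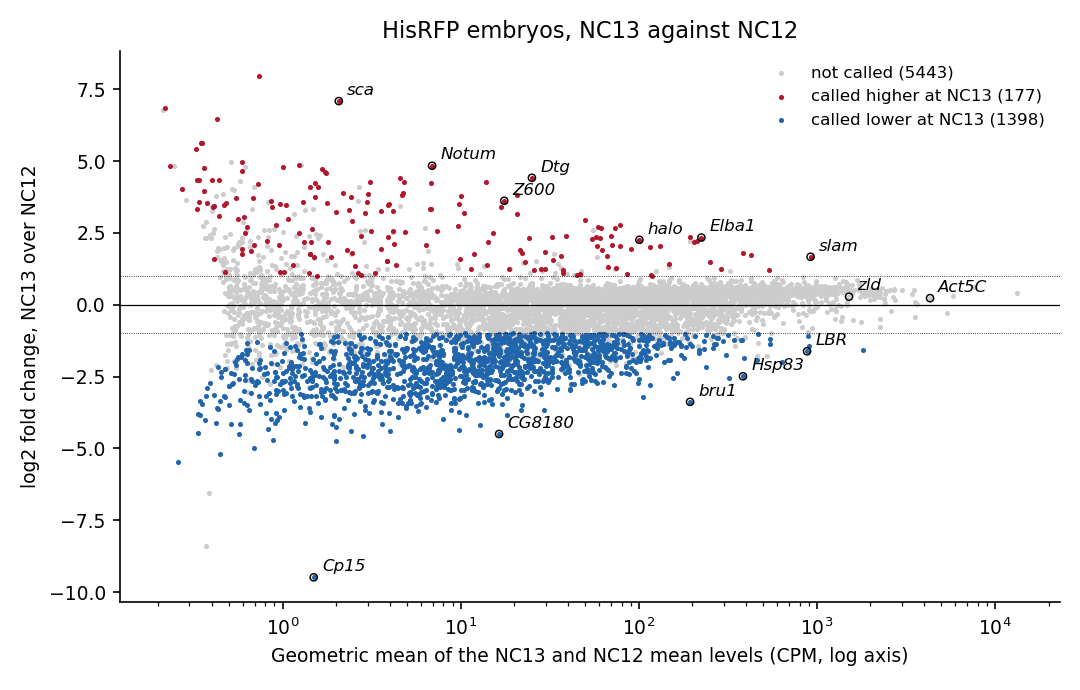
Log2 fold change of NC13 over NC12 (vertical axis) against the geometric mean of the NC13 and NC12 mean levels in CPM on a log axis (horizontal axis) for the 7018 genes tested, with genes called higher and lower in colour and the others in grey. The 177 genes called higher lie at all levels up to those of *slam*, and the 1398 called lower include *CG8180* at -4.50 and, lowest of all, the eggshell gene *Cp15*. Dotted lines mark the fold threshold.

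The mRNA of the genes called higher made up 0.734, 1.97 and 0.819% of all reads in NC13 embryos A, C and D, against 0.293, 0.329, 0.528 and 0.314% in NC12 embryos A to D. The mRNA of the genes called lower made up 2.7, 1.33 and 3.43% in NC13 embryos, against 9.67, 9.8, 6.53 and 9.23% in NC12 embryos. These shares describe genes chosen by the same contrast. NC13 C had the highest level of the 3 NC13 embryos in 154 of the 177 genes called higher and the lowest in 1222 of the 1398 called lower. NC12 C had the highest level of the 4 NC12 embryos in 124 of the 177 and the lowest in 1294 of the 1398. Over all 7018 genes NC13 C was the highest of its cycle in 3017 and the lowest in 3297, and NC12 C in 2302 and 2787.

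The genes that rose were mostly scarce in the oocyte, and the genes that fell were nearly all present in it. Of the 177 genes called higher, 133 (75.1%) averaged under 1 CPM in the 4 HisRFP oocyte libraries, compared with 7 of 1398 called lower (0.501%) and 541 of all 7018 genes (7.71%). At least 5 CPM in oocytes was reached by 20 of the genes called higher (11.3%), 1368 of those called lower (97.9%) and 6052 of all genes (86.2%). The median gene called higher had 0.288 CPM in the oocyte, 0.558 at NC10, 1.22 at NC12, 8.52 at NC13, 24.7 in early NC14 and 58.2 in later NC14. The median gene called lower had 82.5 CPM in the oocyte, 52.8 at NC10, 23.7 at NC12, 5.41 at NC13, 2.83 in early NC14 and 8.77 in later NC14. Over all genes tested the medians were 60.4, 57.3, 47.7, 37.2, 28.2 and 28.3 CPM at the same stages. These levels were scaled over the 23 HisRFP libraries and are given without a test, since such comparisons would share embryos with the one described.

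Genes that other work had sorted by the time of their first transcription, as listed with the study, were counted by class, beside the 2.52% called higher and 19.9% called lower over all genes. Of the 73 Early genes with enough reads, 37 rose past the thresholds and 0 fell, with a median log2 fold change of 1.29. Among the Mid class, 40 of 74 were called higher and 0 lower, with a median of 2.63. In the Late class 14 of 59 were called higher and 1 lower (median 2), and in the Later class 0 of 11 were higher and 2 lower (median 0.21). The Early, Mid, Late and Later classes listed 76, 81, 122 and 88 genes, so that most Later genes had too few reads to be tested. Without both embryos C the counts called higher were 40 in the Early, 46 in the Mid, 5 in the Late and 0 in the Later class. Without NC13 C alone they were 23, 25, 5 and 0, and with the replicate letter as a block 40, 45, 13 and 0. The Late count was thus 5 both without NC13 C and without both embryos C. The counts called lower without both embryos C were 2 in the Early, 0 in the Mid, 0 in the Late and 1 in the Later class.

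Summed over its members, the Early class had 3749, 10809 and 4220 CPM in NC13 embryos A, C and D, against 1304, 1765, 3070 and 1589 CPM in NC12 embryos A to D. The Mid class had 475, 3423 and 691 CPM at NC13, against 126, 150, 630 and 181 CPM at NC12. For the Early class every NC13 embryo lay above every NC12 embryo, and for the Mid class NC12 C (630 CPM) lay above NC13 A (475 CPM). The Late class had 845, 1278 and 828 CPM at NC13, against 661, 601, 790 and 684 CPM at NC12, and the Later class 20, 36.3 and 24.3 CPM, against 31.4, 31.9, 25.1 and 28.7 CPM. *LanA*, a laminin subunit of the extracellular matrix, was among the Late genes that rose. It averaged 8.73 CPM in NC13 embryos and 2 CPM in NC12 embryos. Another was *byn* (*brachyenteron*), the hindgut T-box factor, with 0.567, 2.34 and 0.197 CPM in NC13 embryos A, C and D (3.53 ± 1.04, adjusted p = 0.032). Its mean at NC12 was 0.0804 CPM, and each NC12 embryo lay below its own limit (0.172 to 0.376 CPM). The size of the *byn* rise is therefore uncertain, and *byn* was not tested without NC13 C. Both were picked after their values were seen. The 2 Later genes that fell were *Slh*, with a log2 fold change of -1.85, and *tsh* (*teashirt*), a trunk homeotic gene, with -1.25. *tsh* was not called with the replicate block (adjusted p = 0.057), without NC13 C (-0.98, adjusted p = 0.085) or without both embryos C (-1.04, adjusted p = 0.066), which left 1 Later gene lower in each case.

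**Figure D2:**
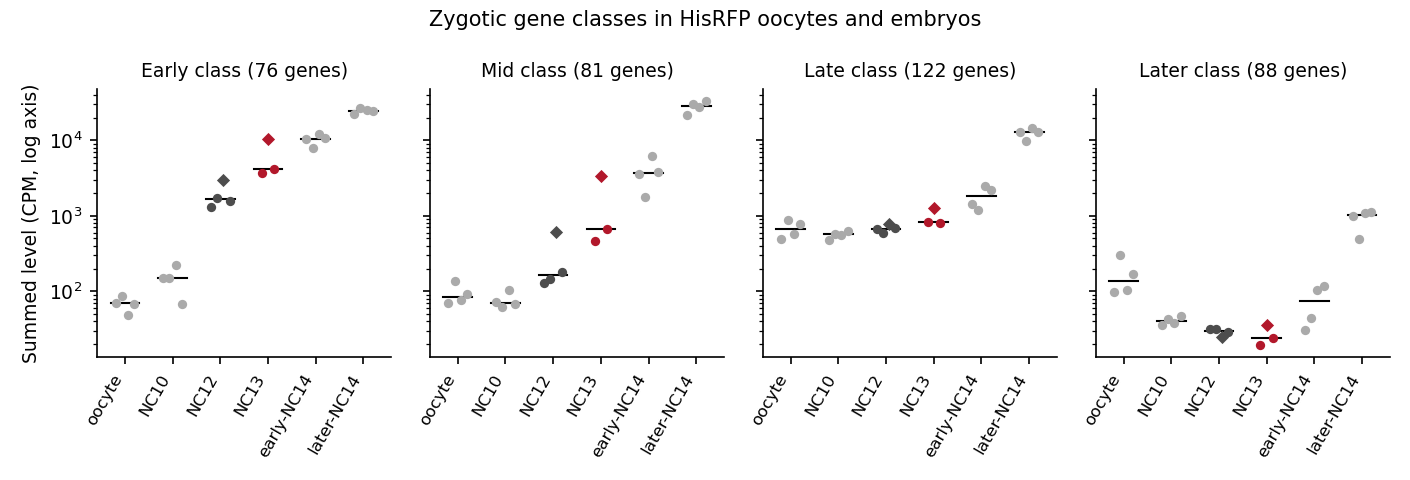
Summed CPM (log axis) of the Early, Mid, Late and Later classes of zygotic genes in each HisRFP library from oocyte to later NC14, scaled over the 23 HisRFP libraries, with NC13 in red, NC12 in dark, other stages in grey and a bar at the median. The median of the Early class was 1655 CPM at NC12, 4112 CPM at NC13 and 10520 CPM in early NC14, while that of the Later class stayed between 23.7 and 138 CPM until later NC14.

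The largest rises, among called genes that averaged at least 5 CPM at NC13 and whose 3 NC13 embryos all exceeded the 4 NC12 embryos, included genes of secreted and membrane proteins. *sca* (*scabrous*), a secreted protein of the Notch pathway, had 0.654, 52.1 and 5.07 CPM in NC13 embryos A, C and D, against 0.0573, 0, 0.627 and 0 CPM in NC12 embryos A to D, where it had 6 reads in all (log2 fold change 7.09 ± 1.77 SE, adjusted p = 0.023). The lowest NC13 embryo was close to the highest NC12 embryo. *Notum*, a secreted enzyme that removes the lipid from Wnt ligands, had 8.5, 80.2 and 15.6 CPM at NC13, against 0.229, 0.195, 4.14 and 0.733 CPM at NC12 (4.84 ± 1.22, adjusted p = 0.024). *cv-2* (*crossveinless 2*), which binds BMP ligands, had 1.66, 17.8 and 3.2 CPM at NC13, against 0.0573, 0.39, 0.878 and 0.0814 CPM at NC12 (4.6 ± 1.13, adjusted p = 0.023). In each of these NC13 C was the highest embryo by several fold.

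*mira* (*miranda*), the adaptor that carries fate determinants in dividing neuroblasts, had 5.27, 48.5 and 7.04 CPM at NC13, against 0.516, 0.585, 2.01 and 0.814 CPM at NC12 (4.43 ± 0.94, adjusted p = 0.022). *Cpr60D*, a cuticle protein gene, had 4.75, 10.6 and 2.31 CPM, against 0.115, 0.292, 0.251 and 0.163 CPM (4.87 ± 0.65, adjusted p = 0.022). *Pvr*, the receptor for PDGF- and VEGF-like factors, had 4.71, 12.7 and 0.985 CPM, against 0.287, 0.0974, 0.502 and 0.407 CPM (4.24 ± 0.90, adjusted p = 0.022). The other genes of this group were *Ance-2*, *zye*, *CG4702*, *Ptr*, *mas* (a serine protease homologue), *Obp99a*, *Mrp4* (an ABC transporter), *sog* and *Dtg*, with log2 fold changes from 3.87 to 4.72 and adjusted p-values from 0.022 to 0.044. *Ptr* had 1.66, 35.4 and 1.28 CPM at NC13, against 0.115, 1.07, 0.753 and 0.814 CPM at NC12. Its call was lost without both embryos C (log2 fold change 1.25, adjusted p = 0.17) and with the replicate letter as a block (adjusted p = 0.073), whereas the other 14 of the 15 largest rises kept theirs in both. Without NC13 C the calls of *Ptr* (1.14, adjusted p = 0.21), *sog* (2.04, adjusted p = 0.17) and *Mrp4* (2.95, adjusted p = 0.06) were lost. DESeq2 on all 7 libraries gave no adjusted p for *CG4702* or *Ptr*.

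The largest gains in CPM included genes of cellularization. *slam* (*slow as molasses*; FBgn0043854, 2L:6372388-6377284, plus strand), which organizes the growing furrow, had the largest gain, with 946, 3004 and 977 CPM in NC13 embryos, against 436, 343, 803 and 485 CPM in NC12 embryos (1.67 ± 0.48, adjusted p = 0.03). Without NC13 C it was not called (0.89, adjusted p = 0.059). It was also maternal, averaging 135 CPM in oocytes. *Nrt* (*neurotactin*), a transmembrane adhesion protein, had 467, 1261 and 420 CPM at NC13, against 174, 160, 286 and 198 CPM at NC12 (1.81 ± 0.41, adjusted p = 0.022). *dunk*, which keeps myosin at the basal front during cellularization, had 168, 434 and 195 CPM, against 59.9, 57.7, 88.1 and 52.4 CPM (2.04 ± 0.36, adjusted p = 0.022). Each of these genes was highest in NC13 C, and no NC13 embryo overlapped with NC12.

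*hrg* (*hiiragi*), a poly(A) polymerase, had 492, 1340 and 485 CPM at NC13, against 234, 193, 299 and 212 CPM at NC12 (1.72 ± 0.38, adjusted p = 0.022). *Nin*, the centrosomal protein ninein, had 590, 1261 and 618 CPM, against 358, 311, 459 and 298 CPM (1.21 ± 0.30, adjusted p = 0.023), and was under the fold threshold without both embryos C (0.91) and without NC13 C (0.76). *bard* and *CG14014* rose by 2.23 and 1.5 on the log2 scale. *Elba1* and *Elba3*, described with the genome activation factors, and *bnk* complete the 10 largest gains in CPM.

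**Figure D3:**
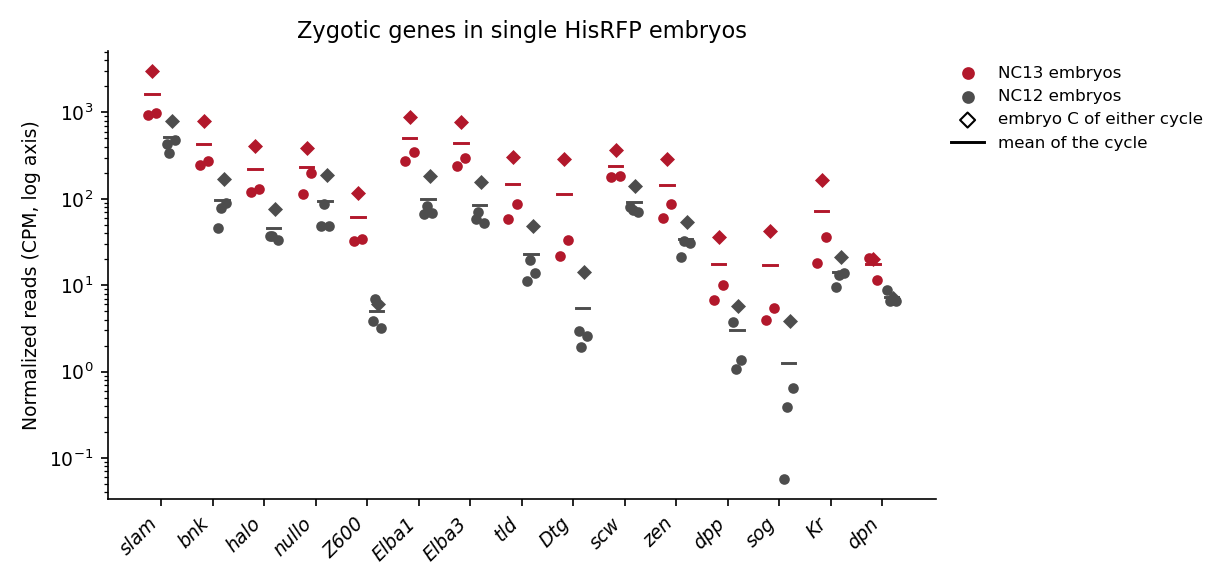
CPM (log axis) of zygotically transcribed genes in each NC13 embryo (left of each pair) and each NC12 embryo (right), with diamonds for embryo C, circles for the others and bars for the means. NC13 lay above NC12 without overlap for most genes, such as *Z600* (32.7 to 116 against 3.18 to 6.92 CPM), whereas the groups overlapped for *nullo* and *Kr*.

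Of the zygotic cellularization genes on the list, 3 of the 4 tested rose (75%, beside 2.52% of all genes), and 0 fell (median log2 fold change 1.93). They were *slam*, *bnk* and *halo*. *bnk* (*bottleneck*; FBgn0004389, 3R:31193362-31194389, plus strand, no intron), which holds back the contraction of the actin network, had 244, 787 and 275 CPM at NC13, against 45.9, 77.4, 171 and 88.5 CPM at NC12 (2.19 ± 0.55, adjusted p = 0.024). *halo* (FBgn0001174, 2L:1517533-1518148, minus strand, no intron), which directs the transport of lipid droplets, had 121, 412 and 129 CPM, against 37, 36.8, 77 and 33.4 CPM (2.26 ± 0.52, adjusted p = 0.022). *nullo*, which stabilizes the basal junctions of the furrow, had 113, 389 and 198 CPM, against 49.1, 87.5, 188 and 48.8 CPM, which overlapped (1.33 ± 0.59, adjusted p = 0.094). Without both embryos C its adjusted p was 0.014 and all 4 genes were called, as they were with the replicate block, whereas 2 were called without NC13 C, where *slam* was not. *Sry-alpha* had no read in any of the 7 embryos, at limits of 0.131 to 0.376 CPM.

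Of the dorsal ectoderm and amnioserosa genes, 9 of 13 tested were called higher (69.2%, beside 2.52% of all genes) and 0 lower (median 2.11). Without both embryos C 8 were higher and 1 lower, and without NC13 C 3 were higher. The BMP ligands *dpp* and *scw* had 6.71, 36.2 and 10.2 CPM and 179, 365 and 183 CPM at NC13, against 3.78, 1.07, 5.77 and 1.38 CPM and 79.5, 74.4, 139 and 70.8 CPM at NC12 (2.57 ± 0.77, adjusted p = 0.033, and 1.42 ± 0.34, adjusted p = 0.022). *tld* (*tolloid*), the protease that frees BMP ligands by cutting Sog, had 57.8, 303 and 86.3 CPM, against 11.2, 19.4, 48.2 and 13.9 CPM (2.70 ± 0.72, adjusted p = 0.026). *tsg* (*twisted gastrulation*), a partner of Sog, had 63.7, 169 and 83.3 CPM, against 27.2, 43.3, 70.6 and 30 CPM (1.30 ± 0.44, adjusted p = 0.045), with NC13 A below NC12 C. For *dpp*, *scw* and *tld* no NC13 embryo lay below an NC12 embryo. None of these 4 genes was called without NC13 C, with values of 1.51 for *dpp* (adjusted p = 0.091), 0.99 for *scw* (adjusted p = 0.031), 1.64 for *tld* (adjusted p = 0.053) and 0.78 for *tsg* (adjusted p = 0.14).

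Among the transcription factors of the same region, *zen* (*zerknüllt*), the homeobox gene of the amnioserosa, had 60.8, 287 and 86.1 CPM at NC13, against 21.2, 32.7, 53.3 and 30.9 CPM at NC12 (2.07 ± 0.56, adjusted p = 0.027). Its neighbour *zen2* rose by 1.26 ± 0.33 on the log2 scale (adjusted p = 0.025), and had 0.97 without both embryos C and 0.81 without NC13 C, under the fold threshold. *Dtg* (FBgn0038071), a BMP-responsive gene, had 21.7, 287 and 33.1 CPM, against 2.92, 1.95, 14.4 and 2.61 CPM (4.42 ± 1.15, adjusted p = 0.025), and *Ance*, an angiotensin-converting-enzyme homologue of the amnioserosa, rose by 3.51 ± 0.81 (adjusted p = 0.022). The T-box gene *Doc1* had 0.349, 5.56 and 2.22 CPM at NC13, against 0.229, 0.195, 0.878 and 0.163 CPM at NC12 (2.97 ± 0.98, adjusted p = 0.042), and its adjusted p was 0.053 with the replicate block and 0.13 without NC13 C. The remaining 4 tested genes, *pnr*, *Doc3*, *ush* and *peb*, ranged from -1.12 to 2.54 on the log2 scale with adjusted p-values from 0.13 to 0.63.

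On the neuroectodermal side, 3 of 7 dorsal-ventral genes tested were called higher (42.9%, beside 2.52% of all genes) and 0 lower (median 2.61). The higher count was 5 without both embryos C, 5 with the replicate block and 1 without NC13 C. *sog* (*short gastrulation*), the antagonist that binds BMP ligands, had 3.97, 42 and 5.47 CPM at NC13, against 0.0573, 0.39, 3.89 and 0.652 CPM at NC12 (3.9 ± 1.30, adjusted p = 0.044). *SoxN*, a Sox factor of the neuroectoderm, had 1.53, 14.5 and 6.65 CPM, against 0.0573, 0.195, 1.88 and 0.163 CPM (3.9 ± 1.16, adjusted p = 0.033). Without NC13 C the adjusted p was 0.17 for *sog* and 0.066 for *SoxN*. NC12 C lay just below the lowest NC13 embryo for *sog* and above it for *SoxN*. Of the mesodermal genes only *twi* and *sna* had enough reads, and neither was called, with 23.6, 15.8 and 16.2 CPM of *twi* at NC13, against 8.08, 5.55, 19.6 and 2.52 CPM at NC12 (1.06 ± 0.61, adjusted p = 0.17). Without both embryos C the value for *twi* was 1.87 (adjusted p = 0.0088).

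The genes of anterior-posterior patterning moved less uniformly. The count of gap genes called higher was 2 with the replicate block or without both embryos C, and 0 without NC13 C. With all embryos 1 of 6 tested was called higher (16.7%, beside 2.52% of all genes), with a median of 1.23. It was *Kr* (*Krüppel*), the central gap factor, with 18, 165 and 36.2 CPM at NC13, against 9.57, 13, 21.3 and 13.8 CPM at NC12 (2.35 ± 0.72, adjusted p = 0.035), and the groups overlapped through NC12 C (0.92 without NC13 C, adjusted p = 0.094). *gt*, *kni*, *tll*, *hkb* and *hb* had log2 fold changes from 0.45 to 1.41 and adjusted p-values from 0.081 to 0.5. Among 6 head genes, *hbn* (a homeobox gene) was called higher at 0.697, 4.49 and 3.2 CPM in NC13 embryos, against 0.0573, 0.195, 0.878 and 0 CPM in NC12 embryos (3.51 ± 1.09, adjusted p = 0.036), and *cnc*, a bZIP factor with maternal mRNA, was called lower (-1.67 ± 0.58, adjusted p = 0.048). With the replicate block 2 head genes were called higher, without both embryos C 3 were, and without NC13 C 0 were (*hbn* 3.04, adjusted p = 0.064).

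None of the 9 pair-rule genes was called by edgeR, with log2 fold changes from -1.68 to 1.77 and a median of 0.49. *eve* (*even-skipped*) had 22.5, 70.5 and 17.6 CPM at NC13, against 53.6, 55.4, 202 and 162 CPM at NC12 (-1.68 ± 0.69, adjusted p = 0.079). *ftz* (*fushi tarazu*) had 27, 143 and 15.2 CPM, against 15.9, 13.5, 24 and 19.2 CPM (1.77 ± 0.71, adjusted p = 0.074). The groups overlapped for both genes, and their fold changes lay on opposite sides of 0. In edgeR *eve* was called lower without both embryos C (-2.18, adjusted p = 0.015) and without NC13 C (-2.57, adjusted p = 0.026). It was also called lower with the replicate block (-1.97, adjusted p = 0.039). DESeq2 on all 7 libraries called *eve* lower (-1.66, adjusted p = 0.023) and *ftz* higher (1.80, adjusted p = 0.022).

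Of the genes that count X chromosomes, 1 of 10 was called higher (10%, beside 2.52% of all genes) and 1 lower (10%, beside 19.9%). With the replicate block 2 were higher. *dpn* (*deadpan*; FBgn0010109, 2R:8228971-8232330, minus strand), the autosomal signal, had 20.5, 20.3 and 11.6 CPM at NC13, against 8.83, 6.62, 7.15 and 6.6 CPM at NC12 (1.26 ± 0.25, adjusted p = 0.022). *da* (*daughterless*), the maternal bHLH partner, had 40.9, 13.1 and 73.5 CPM, against 227, 219, 174 and 255 CPM (-2.36 ± 0.53, adjusted p = 0.022). *Sxl* (*Sex lethal*), the switch gene that these signals set, had 12, 165 and 38.2 CPM at NC13, against 37.3, 36.9, 20.2 and 31.4 CPM at NC12 (1.19 ± 0.75, adjusted p = 0.22), a spread within NC13 that exceeded the difference between cycles. Among 6 tested dosage compensation genes, *lncRNA:roX1*, an RNA of the male complex, was called higher with 30, 302 and 82 CPM, against 11.9, 13.4, 41.1 and 5.86 CPM (2.94 ± 0.90, adjusted p = 0.035), as was *msl-2*, whose protein is limited to males (2.22, 24.2 and 3.05 CPM, against 0.803, 1.46, 2.38 and 2.12 CPM, adjusted p = 0.049). Of the 2, *msl-2* lost its call with the replicate block (adjusted p = 0.086) and without both embryos C (adjusted p = 0.14), and neither was called without NC13 C (adjusted p = 0.11 for *lncRNA:roX1* and 0.29 for *msl-2*). DESeq2 gave no adjusted p for *msl-2*.

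The largest falls were in genes of diverse kinds, enzymes and regulators among them. *TrpRS-m*, a mitochondrial tryptophanyl-tRNA synthetase, had 0.479, 0.244 and 0.345 CPM in NC13 embryos, against 13.1, 12.6, 3.39 and 10 CPM in NC12 embryos (-4.75 ± 0.59, adjusted p = 0.022). *Mccc2*, a subunit of methylcrotonyl-CoA carboxylase, had 0.479, 0.0488 and 1.13 CPM, against 17.8, 17.4, 4.39 and 12.9 CPM (-4.56 ± 0.89, adjusted p = 0.022). *CG8180* had 4.31, 2.58 and 3.35 CPM, against 84.5, 123, 20.6 and 83.1 CPM (-4.50 ± 0.63, adjusted p = 0.022). NC12 C was the lowest of the NC12 embryos in each of these and still lay above all NC13 embryos.

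*Chchd2* (FBgn0260747, X:17149001-17150647, plus strand), a mitochondrial protein, had 4.36, 0.926 and 3.64 CPM at NC13, against a narrow 56.9, 57.7, 47.7 and 57.5 CPM at NC12 (-4.20 ± 0.51, adjusted p = 0.022). Its level was less even before, averaging 1007 CPM in oocytes (range 172 to 1836 CPM) and 240 CPM at NC10 (range 111 to 423 CPM). *Pi3K21B*, the regulatory subunit of class I phosphoinositide 3-kinase, had 1.61, 0.926 and 3.84 CPM, against 72.1, 49.3, 10.7 and 42.4 CPM (-4.36 ± 0.79, adjusted p = 0.022). The group also held *stet*, *WRNexo* (an exonuclease), *tmod* (tropomodulin, which caps actin filaments), *Klp68D* (a kinesin-II motor), *ken* (a transcriptional repressor), *dmpd*, *CG7744*, *CG45071* and *CG4476*, with log2 fold changes from -4.40 to -3.92 and adjusted p-values of 0.022. *Cp15*, an eggshell gene, belonged to the group by its fold change and is described with the eggshell markers.

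Among abundant mRNAs whose embryos did not overlap, *LBR* (the lamin B receptor; FBgn0034657, 2R:21720495-21724055, plus strand) had 467, 564 and 476 CPM at NC13, against 766, 666, 3092 and 1644 CPM at NC12 (-1.62 ± 0.54, adjusted p = 0.045). Its loss in mean CPM rested on NC12 C and D, and it was not called without NC13 C (-1.73, adjusted p = 0.074) or without NC12 C (-1.03). The NC12 embryos differed more than 4-fold among themselves for *LBR*, as they did not for *blw*, the alpha subunit of ATP synthase, at 553, 475 and 603 CPM at NC13, against 1231, 1308, 1607 and 1794 CPM at NC12 (-1.45 ± 0.17, adjusted p = 0.022). *Hsp83* (FBgn0001233, 3L:3192969-3197059, plus strand), the chaperone Hsp90 and a mRNA protected in the germ plasm, had 161, 43.5 and 283 CPM, against 1351, 980, 388 and 935 CPM (-2.49 ± 0.68, adjusted p = 0.027). *bru1* (*bruno 1*; FBgn0000114, 2L:12175004-12313438, plus strand), a repressor of *oskar* translation, had 53.3, 13.9 and 113 CPM, against 786, 797, 187 and 731 CPM (-3.38 ± 0.81, adjusted p = 0.022). *bru1* and *Hsp83* were lowest in embryo C of each cycle.

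The rest of the 10 largest losses in CPM were *Lsd-2* (a perilipin that coats lipid droplets), *awd* (a nucleoside diphosphate kinase), *Mnr*, *rdx* (a Cul3 substrate adaptor), *lost* and *Pxt* (a cyclooxygenase-like enzyme), with log2 fold changes from -2.54 to -1.08 and adjusted p-values from 0.022 to 0.045. *Mnr* resembled *LBR*, with 205, 309 and 195 CPM at NC13, against 435, 416, 1643 and 1119 CPM at NC12. *awd* had a log2 fold change of -0.90 without both embryos C (adjusted p = 0.0065), under the fold threshold, and was called without NC13 C (-1.19) but not without NC12 C (-0.80).

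**Figure D4:**
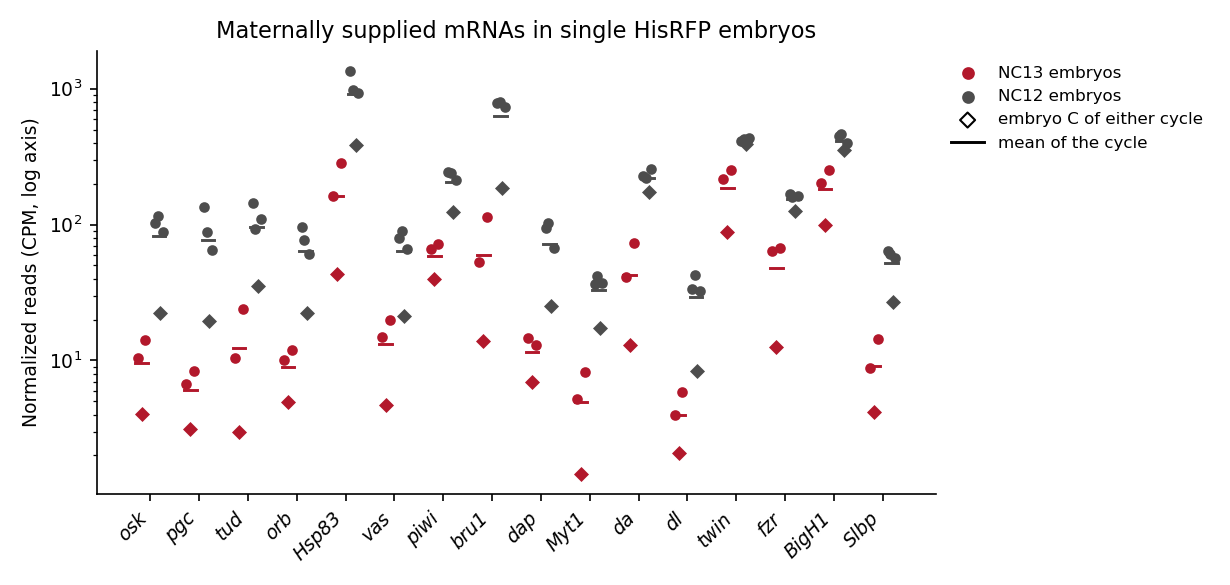
CPM (log axis) of 16 maternally supplied genes in each NC13 embryo (left of each pair) and each NC12 embryo (right), with diamonds for embryo C, circles for the others and bars for the means. Embryo C was the lowest of its cycle for each plotted gene, as for *bru1* (13.9 CPM at NC13 and 187 CPM at NC12), and NC13 lay below NC12 without overlap.

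Of 14 germ plasm mRNAs tested, 9 were called lower and 0 higher, beside 19.9% called lower among all genes, with a median log2 fold change of -2.39. The count was 9 without both embryos C and without NC13 C, and 8 with the replicate block. *osk* (*oskar*; FBgn0003015, 3R:8935126-8938395, plus strand), which assembles the germ plasm, had 10.5, 4.05 and 14.2 CPM at NC13, against 103, 116, 22.5 and 88 CPM at NC12 (-3.10 ± 0.67, adjusted p = 0.022). *pgc* (*polar granule component*), which silences transcription in pole cells, had 6.76, 3.12 and 8.37 CPM, against 135, 88.6, 19.6 and 64.5 CPM (-3.66 ± 0.70, adjusted p = 0.022). *orb*, a regulator of polyadenylation, had 10.1, 4.97 and 12 CPM, against 96.4, 76.6, 22.3 and 61.2 CPM (-2.83 ± 0.55, adjusted p = 0.022). None of the NC13 values reached those of NC12.

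*tud* (*tudor*), *vas* (*vasa*), *ovo* and *piwi* fell by 2.94, 2.29, 2.59 and 1.80 on the log2 scale, with adjusted p-values of 0.025, 0.028, 0.031 and 0.022. *nanos* was the exception in its pattern, with 2.92, 8.97 and 2.46 CPM at NC13, against 202, 40, 6.27 and 26.7 CPM at NC12 (-3.85 ± 1.23, adjusted p = 0.039), where NC12 C lay below NC13 C, and its adjusted p was 0.17 with the replicate block. In early NC14 *nanos* had 0.651, 0.691, 65.1 and 86.9 CPM in embryos A to D, so that its level differed widely between embryos there too. The Argonaute-family genes *aub* and *AGO3*, which act with piRNAs, had log2 fold changes of 0.38 and 0.44 (adjusted p = 0.027 and 0.039), under the fold threshold and opposite in sign to *piwi*. *CycB*, *gcl* and *vls* had values of -0.43, -0.91 and 0.37 and were not called.

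Of 19 maternal axis determinants tested, 4 were called lower (21.1%, beside 19.9% of all genes) and 0 higher (median -0.60), namely *osk*, *nanos*, *dl* and *swa*. The count was 5 without both embryos C and 3 with the replicate block. *dl* (*dorsal*), the transcription factor of the dorsal-ventral axis, had 3.97, 2.1 and 5.86 CPM at NC13, against 33.8, 42.9, 8.4 and 32.7 CPM at NC12 (-2.89 ± 0.61, adjusted p = 0.022). *Tl* (*Toll*), the receptor upstream of Dorsal, had 1965, 2297 and 1793 CPM, against 1269, 1042, 1358 and 1287 CPM (0.70 ± 0.14, adjusted p = 0.022), without overlap but under the fold threshold, and *cact*, the inhibitor that retains Dorsal in the cytoplasm, had a log2 fold change of 0.10 (adjusted p = 0.71). *swa* (*swallow*), needed to place *bicoid* mRNA, had 168, 68.6 and 231 CPM, against 443, 470, 390 and 442 CPM (-1.49 ± 0.37, adjusted p = 0.023).

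Of 18 factors of mRNA clearance tested, 3 were called lower (16.7%, beside 19.9% of all genes) and 0 higher, with a median of -0.13. The count was 2 without NC13 C, without both embryos C and with the replicate block. *twin*, the CCR4 deadenylase, had 215, 88.4 and 253 CPM at NC13, against 414, 423, 389 and 435 CPM at NC12 (-1.16 ± 0.33, adjusted p = 0.029), and was under the fold threshold without both embryos C (-0.85, adjusted p = 0.0013) and without NC13 C (-0.83). The other calls were *bru1* and *nanos*. *smg* (*smaug*), which recruits the deadenylase to its targets, had 4042, 2554 and 4352 CPM, against 3569, 3428, 3655 and 3844 CPM (0.01 ± 0.19, adjusted p = 0.97). *brat* itself had 255, 85.8 and 376 CPM, against 518, 571, 472 and 576 CPM, without overlap (-1.16 ± 0.43, adjusted p = 0.06), and its partner *pum* had a log2 fold change of 0.00 (adjusted p = 0.99). *Not1* and *gw*, the scaffolds of deadenylation and of microRNA silencing, had values of 0.45 and 0.53 (adjusted p = 0.036 and 0.022), under the fold threshold. The microRNAs of the *mir-309* cluster did not match an identifier in the annotation and are not analysed here.

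Of the genes of the Pan Gu kinase, which acts at egg activation, 1 of 3 was called lower (33.3%, beside 19.9% of all genes) and 0 higher (median -1.49). The catalytic subunit gene *png* had 3.14, 2.58 and 4.58 CPM at NC13, against 13.5, 10.3, 6.9 and 7.82 CPM at NC12 (-1.49 ± 0.33, adjusted p = 0.022). *gnu*, an activating subunit, had 45.9, 8.43 and 88.6 CPM, against 212, 204, 109 and 182 CPM (-1.89 ± 0.69, adjusted p = 0.057), and was called with the replicate block, without NC13 C and without both embryos C, so that 2 of 3 were then lower. *plu* had a log2 fold change of 0.41 (adjusted p = 0.023).

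Among the cell cycle regulators, 1 of 23 was called higher (4.35%, beside 2.52% of all genes) and 5 were called lower (21.7%, beside 19.9%), with a median of -0.43. Without NC13 C 4 were lower, and 3 with the replicate block. *Z600* (*frühstart*; FBgn0004052, 3L:15509061-15509513, plus strand, no intron), a zygotic inhibitor that prevents premature mitosis, had 32.7, 116 and 34.2 CPM at NC13, against 3.9, 6.92, 6.02 and 3.18 CPM at NC12 (3.62 ± 0.54, adjusted p = 0.022). *dap* (*dacapo*), a CDK inhibitor of the p21 and p27 family, had 14.6, 6.97 and 13 CPM, against 94.3, 103, 25 and 66.9 CPM (-2.65 ± 0.53, adjusted p = 0.022). *Myt1*, an inhibitory kinase of Cdk1, had 5.23, 1.46 and 8.22 CPM, against 36.3, 42, 17.2 and 37.3 CPM (-2.74 ± 0.60, adjusted p = 0.022). No NC13 embryo overlapped with NC12 for these genes.

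*fzr* (*fizzy-related*), an activator of the anaphase-promoting complex, fell by 1.68 ± 0.52 on the log2 scale (adjusted p = 0.037), with 64.1, 12.6 and 66.9 CPM at NC13, against 168, 160, 125 and 162 CPM at NC12. Its relative *fzy* had a log2 fold change of 0.46 (adjusted p = 0.033), under the fold threshold. *Cdk2* and *mei-41*, the ATR kinase, were called lower at -1.03 and -1.89 (adjusted p = 0.022 and 0.031), and neither was called with the replicate block (log2 fold change -0.97 and adjusted p = 0.064) or without NC13 C (-0.85 for *Cdk2*, and -1.71 with an adjusted p of 0.059 for *mei-41*). *stg* (*string*), the Cdc25 phosphatase that drives entry into mitosis, had 258, 40 and 451 CPM, against 675, 996, 833 and 932 CPM, without overlap (-1.78 ± 0.68, adjusted p = 0.065), while its paralog *twe* had a log2 fold change of 0.32 (adjusted p = 0.033). *CycB*, *CycA*, *polo*, *aurA* and *aurB* had values between -0.49 and 0.28 and were not called.

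Among factors of genome activation and chromatin architecture, 3 of 17 were called higher (17.6%, beside 2.52% of all genes) and 0 lower (median 0.41). The higher count was 2 without NC13 C or without both embryos C. All 3 were members of the Elba insulator complex. *Elba1* (FBgn0000227, 2L:4683052-4684461, minus strand) had 273, 891 and 352 CPM at NC13, against 66.7, 81.9, 182 and 69.1 CPM at NC12 (2.34 ± 0.52, adjusted p = 0.022), and *Elba3* had 239, 780 and 299 CPM, against 58.9, 71.2, 158 and 52.5 CPM (2.37 ± 0.54, adjusted p = 0.022). *Elba2* had 251, 776 and 313 CPM, against 160, 176, 260 and 160 CPM (1.24 ± 0.40, adjusted p = 0.04), with NC13 A below NC12 C, and was under the fold threshold without both embryos C (0.78) and without NC13 C (0.57, adjusted p = 0.083). *zld*, the pioneer factor itself, had 1658, 1972 and 1388 CPM at NC13, against 1156, 1016, 1511 and 1810 CPM at NC12 (0.28 ± 0.22, adjusted p = 0.31), and the groups overlapped. Among other factors, *Clamp* and *Stat92E* had values of 0.45 and 0.41 (adjusted p = 0.022 and 0.023), and *Trl*, which encodes GAF, had 0.28 (adjusted p = 0.26).

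Of 10 genes for embryonic histones and their chaperones, 3 were called lower (30%, beside 19.9% of all genes) and 0 higher (median 0.28). The lower count was 2 without NC13 C or without both embryos C. *BigH1*, the embryonic linker histone, had 201, 100 and 251 CPM at NC13, against 447, 463, 354 and 397 CPM at NC12 (-1.17 ± 0.29, adjusted p = 0.023), and was under the fold threshold without NC13 C (-0.88) and without both embryos C (-0.94). *Slbp*, which binds the stem-loop of histone mRNAs, had 8.76, 4.19 and 14.5 CPM, against 64.1, 61.1, 27 and 56.4 CPM (-2.51 ± 0.49, adjusted p = 0.022), and *Caf1-105*, a histone chaperone subunit, fell by 1.51 ± 0.27 (adjusted p = 0.022). Its partners *Caf1-55* and *Caf1-180* had values of 0.43 and 0.17. The endogenous and tagged copies of *His2Av*, with a log2 fold change of 0.43 (adjusted p = 0.033), cannot be told apart in these counts.

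In the Notch pathway and the Bearded family, 1 of 15 genes tested was called higher (6.67%, beside 2.52% of all genes) and 1 lower (6.67%, beside 19.9%), with a median of 0.35. The higher count was 2 without both embryos C and 0 without NC13 C, where *Tom* was not called (1.05, adjusted p = 0.087). *Tom*, a Bearded-family inhibitor of Neuralized, had 49.3, 112 and 34.8 CPM at NC13, against 9.52, 18.7, 32.6 and 20.1 CPM at NC12 (1.69 ± 0.50, adjusted p = 0.033), and *mib1*, a ubiquitin ligase for Notch ligands, fell by 1.67 ± 0.46 (adjusted p = 0.027) and was not called with the replicate block (adjusted p = 0.093). Members of this family are similar in sequence, so that reads may have been lost from them in counting. Among 7 proneural genes 0 were higher and 1 lower (14.3%, beside 19.9% of all genes), with a median of 0.45. The 1 lower was *ato* (*atonal*), with 3.7, 1.37 and 2.02 CPM, against 11.4, 13, 6.4 and 11.2 CPM (-2.14 ± 0.42, adjusted p = 0.022). Among 5 gastrulation and Toll-family genes 0 were higher and 2 lower (40%, beside 19.9% of all genes), with a median of -1.26. The lower count was 3 without NC13 C or without both embryos C. *Tollo*, a Toll-family receptor, was among the 2 (-2.86 ± 0.57, adjusted p = 0.022).

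Large housekeeping groups had no call at the higher side. Of 85 cytosolic ribosomal protein genes, 0 were called by edgeR in either direction. Of these 85, 52 had an adjusted p under 0.05 with higher levels at NC13, beside 21.7% of all genes. The median log2 fold change of the 85 was 0.51. Their summed level was 103188, 130606 and 94179 CPM in NC13 embryos, against 72553, 74105, 101449 and 76051 CPM in NC12 embryos, and NC12 C lay among the NC13 embryos. Mitochondrial ribosomal protein genes had 9 of 71 called lower and 0 higher (median -0.07), proteasome subunit genes 7 of 33 lower and 0 higher (median -0.02), and oxidative phosphorylation genes 3 of 60 lower and 0 higher (median 0.26). Without both embryos C these groups had 12, 6 and 5 genes called lower in the same order. With all embryos the shares called lower were near or below the 19.9% of all genes. Within the proteasome the calls were all in the 19S regulatory particle, among them *Rpn8* at 17.1 CPM on average in NC13 embryos and 97.3 CPM in NC12 embryos (-2.50, adjusted p = 0.022) and *Rpn1* at 23 and 88 CPM (-1.94, adjusted p = 0.022), which were picked after their values were seen. *Act5C*, a cytoplasmic actin, had a log2 fold change of 0.23 ± 0.16 (adjusted p = 0.26).

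Some maternal and early zygotic mRNAs differed more among NC12 embryos than between the cycles. *bcd* (*bicoid*), the anterior determinant, had 218, 249 and 531 CPM in NC13 embryos A, C and D, against 4.01, 394, 540 and 10.8 CPM in NC12 embryos A to D (log2 fold change 0.49 ± 1.39, adjusted p = 0.78). *hb* (*hunchback*), its target, had 258, 629 and 582 CPM, against 21.3, 325, 457 and 68 CPM, and *btd* (*buttonhead*), a head gap gene, had 5.23, 14.6 and 10 CPM, against 0.0573, 3.02, 11.7 and 0.163 CPM. NC12 A and D were the low embryos for all of these. They were also low for *slp1* (4.76 and 2.52 CPM, against 35.3 and 47.9 CPM in NC12 B and C) and *prd* (0.229 and 0.652 CPM, against 3.8 and 9.28 CPM). They were not low for every such mRNA. *cad* had 435 and 449 CPM in NC12 A and D, against 313 and 251 CPM in NC12 B and C. *nanos* was highest in NC12 A, at 202 CPM, against 40, 6.27 and 26.7 CPM in NC12 B to D. *bcd* varied at other HisRFP stages as well, at 13.4 to 35.9 CPM in 4 embryos at NC10 and 26.9 to 437 CPM in 4 embryos of early NC14. Without NC12 A and D, edgeR called 0 genes (1808 at an unadjusted p under 0.05), and what set *bcd* apart in these embryos was not tested.

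As a check on other cell types, markers of the follicle cells that make the eggshell were summed. The 21 markers together had 1.09, 0.341 and 0.197 CPM in NC13 embryos, from 25, 7 and 4 reads, against 1.49, 4.87, 126 and 11.4 CPM in NC12 embryos, from 26, 50, 1003 and 140 reads. Most of the NC12 C signal was *Cp15*, a chorion protein gene, with 101 CPM there, against 0.573, 3.8 and 7.09 CPM in the other NC12 embryos and 2 reads in all at NC13. Of the 3 markers tested *Cp15* was called lower (adjusted p = 0.026, and 0.055 without NC13 C), and 2 markers were called with the replicate block. DESeq2 gave no adjusted p for *Cp15*. The markers were thus highest in NC12 C and lowest at NC13. Without NC12 C the counts over all genes were 191 higher and 1454 lower.

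The genes called in the 2 directions differed in structure in the Ensembl annotation of Release 6 of the genome, which is the assembly the study counted on. Of the genes called higher, 50 (28.2%) had no intron, compared with 118 (8.47%) of those called lower and 10.5% of all genes tested. Their median transcript was 1832 bases long, compared with 2246 bases for genes called lower and 2079 bases for all. The median gene spanned 2981 bases, 3046 bases and 2796 bases in the same order, so that gene span differed less than transcript length. The X chromosome carried 16 of the genes called higher (9.04%), 266 of those called lower (19.1%) and 1266 of all genes tested (18.1%).

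The same interval was sampled in embryos of *brat*-mutant mothers (labelled brat Df/fs1), with 3 embryos at NC13 and 4 at NC12 that share no library with the HisRFP comparison. In these embryos edgeR called 0 of 7132 genes tested (0%), with a smallest adjusted p of 0.0878 and 2849 genes at an unadjusted p under 0.05, whereas DESeq2 called 137 higher and 940 lower. An edgeR fit over all 23 *brat*-mutant libraries, added after the data were seen, called 349 higher and 1038 lower. The genes chosen in HisRFP embryos moved in the same direction there. Of the 159 genes called higher in HisRFP that were tested in *brat* mutants, 151 (95%) had a positive log2 fold change, compared with 51.9% of all genes tested in *brat* mutants. An unadjusted p under 0.05 in that direction was reached by 110 (69.2%), against a background of 18.6%, and by 0 in the opposite direction. Of the 1389 genes called lower, 1360 (97.9%) had a negative fold change, compared with 48.1% of all, and 1056 (76%) reached an unadjusted p under 0.05, against a background of 21.3%.

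The median log2 fold change of these genes was 1.87 in *brat* mutants and 2.38 in HisRFP embryos for those called higher, and -1.34 and -2.03 for those called lower. Since the genes were chosen for their size in HisRFP, the smaller medians in *brat* mutants are a description only. Single genes had the same sign in *brat* mutants. Among the rises the log2 fold changes were 1.52 for *slam*, 3.10 for *Z600*, 2.1 for *Elba1* and 2.92 for *Dtg*. Among the falls they were -2.74 for *osk*, -1.74 for *bru1*, -2.26 for *Hsp83* and -3.59 for *CG8180*. The *brat*-mutant NC13 embryos A, C and D had 2663, 972 and 1177 CPM of *slam* and 816, 217 and 383 CPM of *Elba1*. For *Dtg* they had 166, 17.4 and 24 CPM, with C and D below NC12 B (25.7 CPM). NC13 A was thus the highest for each of these. *zen2* and *sog* had smaller values in *brat* mutants, at -0.04 ± 0.34 SE and 0.50 ± 1.63 SE. For *sog* the *brat*-mutant NC12 embryos ranged from 0.33 to 36.3 CPM. A difference between genotypes was not shown for either gene (interaction test in edgeR, adjusted p = 0.62 for *zen2* and 0.97 for *sog*). All 14 germ plasm genes but 1 had negative values in *brat* mutants (median -2).

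**Figure D5:**
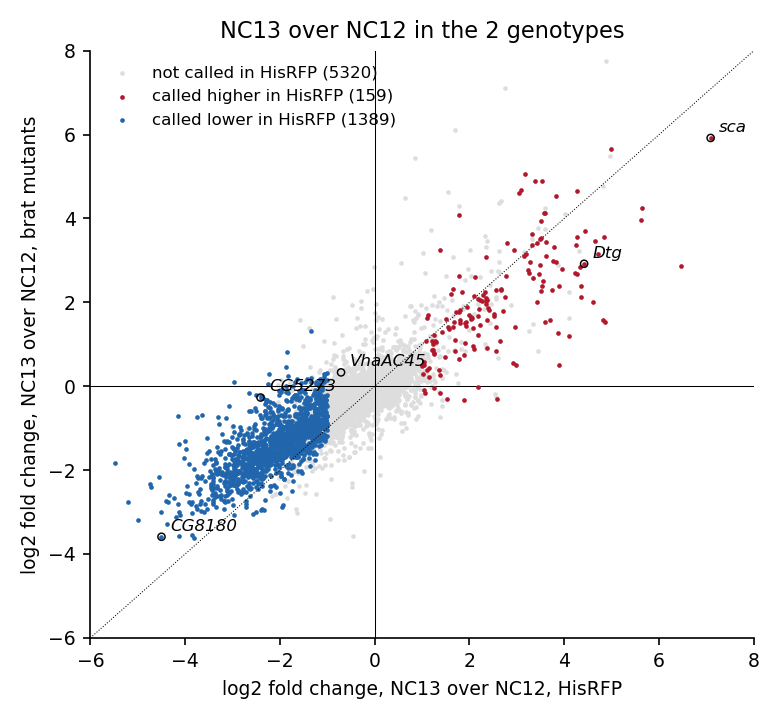
Log2 fold change of NC13 over NC12 in *brat*-mutant embryos (vertical axis) against the same in HisRFP embryos (horizontal axis) for genes tested in both, with genes called higher and lower in HisRFP coloured and the others in grey. Most coloured genes lie in the quadrants of equal sign (151 of 159 and 1360 of 1389). *CG5273* is among them, at -2.41 in HisRFP and -0.27 in *brat* mutants. *VhaAC45*, at -0.71 and 0.33, was not called in HisRFP and lies in a quadrant of opposite sign.

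The difference between genotypes was tested directly as the interaction of genotype and cycle over the 14 libraries. It passed an adjusted p of 0.05 in 2 of 7635 genes (0.0262%), with 503 at an unadjusted p under 0.05. *VhaAC45*, an accessory subunit of the vacuolar proton pump, had 393, 344 and 307 CPM at NC13 in *brat* mutants, against 268, 304, 251 and 273 CPM at NC12, while HisRFP embryos had 134, 106 and 127 CPM at NC13, against 197, 193, 212 and 204 CPM at NC12 (interaction 1.07 ± 0.15 on the log2 scale, edgeR adjusted p = 0.046). *CG5273* had 232, 230 and 186 CPM at NC13 in *brat* mutants, against 243, 299, 248 and 241 CPM at NC12, and 39.4, 27 and 50.2 CPM at NC13 in HisRFP embryos, against 153, 171, 249 and 261 CPM at NC12 (2.17 ± 0.31, adjusted p = 0.046). The log2 fold change of *CG5273* was -0.27 in *brat* mutants and -2.41 in HisRFP embryos. With the replicate block neither passed (adjusted p = 0.17 for both), and leaving out single embryos gave 0 to 30 genes, the highest without HisRFP NC13 C.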

How the data were processed

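Single-embryo poly(A)-selected libraries (TruSeq RNA sample prep kit v2) had been sequenced as 75-base reads. The authors aligned them to dm6 with HISAT2 2.1.0, kept uniquely placed reads at a mapping quality of at least 30 with SAMtools, and counted them per gene with featureCounts 1.5.3 without strand, so that a gene and its antisense partner cannot be told apart. The deposited values are these raw counts for 17510 genes, of which 17405 (99.4%) matched the Ensembl annotation used for names, and all rows were genes.

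Library totals ranged from 8036126 to 23781175 reads. Counts were tested with edgeR 4.0.16 in R 4.3.3 (TMM factors, glmQLFit and glmQLFTest, genes with at least 50 summed reads, Benjamini-Hochberg adjustment). A gene was called at an adjusted p under 0.05 and a log2 fold change beyond 1, the study's thresholds. CPM are counts scaled to a common library total with the TMM factors of the same fit. The procedure was also run on counts simulated from the means and totals of these HisRFP libraries. The simulation used the same dispersion for all genes and no embryo set apart. It therefore does not show how the calls behave with embryos such as C. DESeq2 1.42.0, other scalings, filters, thinning of NC13 to the NC12 depth, and omission of each library served as alternatives. Two-sided tests were used throughout.

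Same-letter HisRFP embryos had correlations of residuals from the cycle means of 0.273 (A), 0.5 (C) and 0.17 (D). Different-letter pairs among A, B and D had 0.16 to 0.368. Pairs of an embryo C with another letter had -0.462 to -0.198. The pattern thus set embryo C against the others and was not particular to the letter. The letters come from the sample titles, and the labels do not say what they stand for. A fit with the letter as a block is given beside named genes whose call it ended and beside list counts that it moved the most. Letter B occurs only at NC12, so that NC12 B does not inform the fold change in that fit. The block fit thus differs from the main fit in the embryos compared as well as in the letter.

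Genes were named by rule, as the 15 largest rises and falls by fold change and the 10 largest by CPM difference among called genes that averaged at least 5 CPM in the higher cycle and whose embryos did not overlap, the members of the gene lists, and *zld*, *brat* and *Act5C*. The comparison, the lists and the members were chosen with earlier results of these data known, and the omission of both embryos C, of NC12 A and D, the edgeR option and 5 settings for *brat* mutants were added after the data were seen. Promoter and protein sequences were not used here. Members of the gene lists that are not named are counted with their lists and not reported singly here.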

Additional observations from a re-analysis of the deposited data

Results flagged for a closer look

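Among the 4 NC12 embryos, 18 of 98 genes and 6 of 29 summed lists had 1 embryo set apart from the others by Dixon's criterion. Chance alone meets this criterion in about 1 of 20 independent groups. The genes and lists come from the same 4 embryos and are not independent, so that the counts cannot be read against that rate. In 17 of the genes the embryo set apart was NC12 C. It was the highest NC12 embryo for *sca* (0.627 CPM), *Notum* (4.14 CPM), *Dtg* (14.4 CPM), *sog* (3.89 CPM), *Mrp4* (2.38 CPM), *SoxN* (1.88 CPM), *Doc1* (0.878 CPM), *Elba1* (182 CPM), *Elba2* (260 CPM), *CG14014* (241 CPM), *scw* (139 CPM), *halo* (77 CPM) and *Cp15* (101 CPM). It was the lowest for *Chchd2* (47.7 CPM), *bru1* (187 CPM), *Pxt* (529 CPM) and *cnc* (289 CPM). NC12 D was the highest for *Obp99a* (0.57 CPM).

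NC12 C was also the highest in the summed level of the dorsal ectoderm genes (366 CPM), the cellularization genes (1238 CPM), the Mid zygotic class (630 CPM), the eggshell markers (126 CPM) and the cytosolic ribosomal protein genes (101449 CPM). NC12 D was the lowest for the mitochondrial ribosomal protein genes (1894 CPM).

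The change over the cycle differed between *brat*-mutant and HisRFP embryos, by the interaction test in edgeR, for *CG5273* (2.17 on the log2 scale, adjusted p = 0.046) and *VhaAC45* (1.07, adjusted p = 0.046). Neither passed with the replicate block (adjusted p = 0.17 for both), and leaving out single embryos gave 0 to 30 genes. The cause of these differences was not tested.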

How the results depend on the processing

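No setting gave a called HisRFP gene of the opposite sign. The counts of 177 higher and 1398 lower became 1520 higher without the fold threshold and 0 in both directions without NC12 A and D, and single omissions gave 0 to 201 higher and 0 to 1573 lower. The calls vanished without NC12 A, B or D or NC13 A, and 95 genes were called higher without NC13 C. The replicate block gave 173 higher and 1327 lower. Library totals alone gave 127 higher and 1357 lower. DESeq2 gave 194 and 1613, and with NC13 thinned to the NC12 depth 158 and 1396 were called. Of 98 named genes, 7 lost their call with the replicate block, 9 with library totals, 4 with DESeq2 and 24 without NC13 C. The 4 lost with DESeq2 were *CG4702*, *Ptr*, *Cp15* and *msl-2*. For these DESeq2 gave log2 fold changes of 4.29, 4.28, -9.91 and 2.59 but no adjusted p. Without NC12 C the calls of *Ptr*, *LBR*, *Lsd-2*, *awd*, *cnc* and *msl-2* ended, and without NC13 D those of *Cp15*, *LBR*, *Mnr*, *hbn*, *tsg*, *Doc1*, *nanos* and *mib1*. In *brat* mutants, where edgeR gave 0, DESeq2 gave 137 higher and 940 lower, a filter of 1 read 193 and 994, and a common fit of 23 libraries 349 and 1038, the filter and the common fit being added after the data were seen, and single omissions gave 0. Same-letter *brat*-mutant embryos had correlations of -0.326, 0.371 and -0.0639, and the block still gave 0 calls. The interaction count of 2 was 102 with DESeq2, 0 with the replicate block and 0 to 30 with single omissions. The cause of these shifts was not tested. Depth limited detection to about 0.131 to 0.376 CPM. Promoter motif shares were not run.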
